A study of Mus musculus with 3 samples.

Results

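The cells described here are testicular germ cells whose RNA was led by Tex101, Gml2 and Sycp3, and they numbered 365 of the 5023 cells of the series. Each cell was scored on 12 trios of genes. For each trio the natural log expression values of its 3 genes were averaged and standardised over all cells, and a cell was kept if the trio Tex101, Gml2 and Sycp3 had its highest score. The levels of these 3 genes chose the cells, so they are given as a description only. The cells were put forward as early prophase spermatocytes, a name checked against other genes below, and are called the Tex101 cells here.

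The cells came from 3 libraries, 1 per group. On postnatal day 21 the testes of ICR mice were microinjected with AAV9 virus that delivered a short hairpin RNA together with RFP, a red fluorescent marker. The control hairpin (shCtrl) went into one testis and a hairpin against the long non-coding RNA gene Gm4665 into the opposite one, so all groups carried the virus and RFP. Hairpin 1 (shRNA1) and hairpin 2 (shRNA2) are separate hairpins against Gm4665, each condition was described as 3 mice, and somatic cells had been removed before RFP-positive cells were sorted. With pooled animals and 1 library per group, no difference between groups could be tested, and every interval given here (95%) covers counting error only.

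In the prophase of the first meiotic division, homologous chromosomes pair, are joined along their length by the synaptonemal complex, and exchange DNA at programmed breaks. Leptotene, zygotene, pachytene and diplotene are its successive stages. In male cells the X and Y chromosomes are largely unpaired and are transcriptionally silenced at pachytene, in a nuclear domain called the sex body. Sycp3 encodes a component of the chromosome axis, while Tex101 encodes a germ cell surface protein of the Ly6/uPAR family, anchored to the membrane by a lipid and needed for the maturation of sperm surface proteins.

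The start regions of 4 genes are shown because their levels set the Tex101 cells apart from the cells around them: Tex101 and Sycp3 from the rule, Piwil1 from the genes that stood out without being used by it, and Stra8 as a gene of meiotic entry that was nearly absent. Each is 300 bases, 250 before and 50 after the start of the gene in RefSeq (GRCm38.p6), printed 5′ to 3′ on the strand of the gene. Capitals mark matches to the letters AACNGNC on either strand, a short form of the motif of MYB factors, a family that includes the pachytene regulator Mybl1.
Tex101, chr7:24672001-24672300, minus strand: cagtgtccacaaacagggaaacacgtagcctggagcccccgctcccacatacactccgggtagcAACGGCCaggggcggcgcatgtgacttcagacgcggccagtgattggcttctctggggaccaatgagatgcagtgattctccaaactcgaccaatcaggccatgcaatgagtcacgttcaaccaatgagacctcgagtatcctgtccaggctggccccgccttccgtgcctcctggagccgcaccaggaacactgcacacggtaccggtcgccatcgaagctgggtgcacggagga
Sycp3, chr10:88459337-88459636, plus strand: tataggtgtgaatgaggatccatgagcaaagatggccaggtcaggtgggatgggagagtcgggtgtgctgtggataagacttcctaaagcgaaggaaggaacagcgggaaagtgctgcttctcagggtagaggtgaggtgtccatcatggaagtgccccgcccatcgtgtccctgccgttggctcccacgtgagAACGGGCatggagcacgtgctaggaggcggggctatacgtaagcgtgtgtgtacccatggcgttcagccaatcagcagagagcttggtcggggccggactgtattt
Piwil1, chr5:128735996-128736295, plus strand: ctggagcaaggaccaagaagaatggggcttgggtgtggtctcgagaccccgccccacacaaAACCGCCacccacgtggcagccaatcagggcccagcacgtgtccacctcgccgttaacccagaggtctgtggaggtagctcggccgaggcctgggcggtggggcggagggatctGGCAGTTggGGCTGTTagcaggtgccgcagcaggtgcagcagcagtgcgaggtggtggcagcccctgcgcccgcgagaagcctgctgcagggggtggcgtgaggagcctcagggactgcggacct
Stra8, chr6:34920698-34920997, plus strand: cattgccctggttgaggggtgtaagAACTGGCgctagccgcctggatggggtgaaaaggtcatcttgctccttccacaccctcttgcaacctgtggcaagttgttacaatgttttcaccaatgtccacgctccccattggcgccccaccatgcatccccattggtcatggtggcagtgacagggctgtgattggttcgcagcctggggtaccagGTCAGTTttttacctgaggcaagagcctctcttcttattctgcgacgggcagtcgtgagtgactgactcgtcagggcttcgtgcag
Matches numbered 1 for Tex101, 1 for Sycp3, 3 for Piwil1 and 2 for Stra8. Of the 50 genes that stood out most in the Tex101 cells, 32 had a start region in the table, and 14 of these (43.8%) held a match, against 32.8% of all 27025 start regions of the same length. The motif CNCCTCAG, known for STRA8, was in 5 of the 32 (15.6%) and in 7.97% of all regions, and the cAMP response element TGACGTCA was in 0 of the 32 and in 1.88% of all. None of the 4 regions above held either of these. The motifs do not overlap in their letters, and a match is only a match of letters.

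The Tex101 cells made up 79 of 1418 control cells (5.57%, exact binomial interval 4.44 to 6.90%). With hairpin 1 they were 73 of 1732 cells (4.21%, 3.32 to 5.27%), and with hairpin 2 they were 213 of 1873 cells (11.4%, 9.97 to 12.9%). The interval of the control thus overlapped that of hairpin 1, and the share with hairpin 2 lay above both. In neighbouring classes, cells led by Stra8, Crabp1 and Dmrt1 (the Stra8 cells) were 3.10% of the control, 7.56% with hairpin 1 and 8.65% with hairpin 2. Cells led by Aurka, Ccna1 and Dnaic2 (the Aurka cells) were 5.36%, 9.53% and 9.77%. As a share of the cells of these classes and of those led by Ssxb1, Ssxb2 and Gm6588, the Tex101 cells were 30.4% in the control, 12.9% for hairpin 1 and 29.7% for hairpin 2. On that count hairpin 1 stood apart, so which library differs depends on the cells it is counted against.

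**Figure D1:**
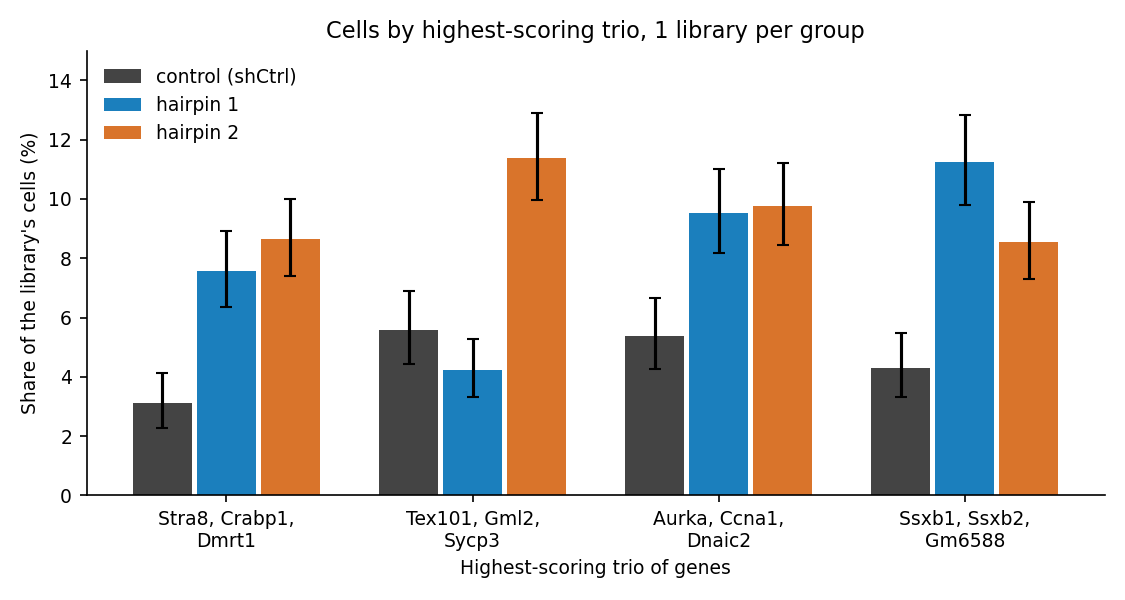
Share of each library's cells (vertical axis, %) by the trio with the highest score (horizontal axis), with exact binomial 95% intervals for counting error as bars. In the Tex101, Gml2 and Sycp3 class only hairpin 2 stands above the control (11.4% against 5.57%), whereas in the other 3 classes both hairpins do.

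The median Tex101 cell held 24517 UMIs (counted RNA molecules) in the control, and 18090 and 23094 with hairpins 1 and 2. Their summed UMIs were 2465750, 1554174 and 5654989, and levels below are CPM, the UMIs of a gene divided by this sum and put on one common scale. One control cell with 166148 UMIs gave 6.74% of the control sum. Membership was clear for most cells: 34 of the 365 led their next trio by less than 0.5 standard deviations, and 33 cells outside came as near from the other side. The 5 nearest inside had margins of 0.0021 to 0.018, and the 5 nearest outside 0.056 to 0.097. The standardised trio score of the members ranged from -0.12 to 4.67 with a median of 3.22. Barcodes present in more than 1 library numbered 18, and 3 Tex101 cells carried one.

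Tex101 itself was at 1689 CPM in the control, and at 1891 and 1636 CPM with hairpins 1 and 2. Gml2, another Ly6/uPAR gene, was at 408, 417 and 399 CPM, and Sycp3 at 1434, 1216 and 1257 CPM. Since these levels chose the cells, their likeness across libraries is no result. After thinning each cell to 7000 UMIs, Tex101 was seen in 98.7%, 95.9% and 99.5% of the Tex101 cells. In cells led by the leukocyte genes Cd52, Mzb1 and Lyz2, which should lack it, it was seen in 5.0%, 2.13% and 6.63% (median depths before thinning 14002, 9700 and 13294 UMIs).

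The name early prophase held in part. Of 13 markers of early prophase that the rule did not use, 12 were in the table. The filter for comparison, a mean of 10 CPM and 30 UMIs in all, was passed by 9. Of the 9, 8 were at least 2-fold higher in the Tex101 cells than in the other cells of every library. Of all 7567 compared genes, 32.1% were. The filter uses levels in the Tex101 cells, so a marker nearly absent there, such as Prdm9, was left out of this count. The other cells were of all classes, so the count does not tell early prophase from its neighbours. The summed level of the 12 was 2607, 2607 and 2444 CPM in the control, hairpin 1 and hairpin 2, against 800, 684 and 765 CPM in the other cells. In the Stra8 cells this sum was 1736, 1243 and 1225 CPM, and in the Aurka cells 468, 520 and 533 CPM. A list of 16 genes of meiotic entry summed to 1845, 1879 and 1736 CPM against 878, 1111 and 1141 CPM in the other cells and 3842, 2874 and 2874 CPM in the Stra8 cells, and 7 of its 10 compared genes were at least 2-fold higher than in the other cells. Its members differed: Dazl, an RNA binding protein of germ cells, was at 712, 640 and 630 CPM, while others were nearly absent. Stra8, the retinoic acid target that starts the meiotic programme, was at 5.27, 5.79 and 6.01 CPM, and at 1206, 756 and 536 CPM in the Stra8 cells. Prdm9, the methyltransferase that places the programmed breaks, was at 2.03, 3.22 and 0.71 CPM against 50.4, 20.3 and 14.5 CPM there. The 10 markers of pachytene to diplotene summed to 6514, 6844 and 6016 CPM, below the other cells (7111, 7741 and 7241 CPM) and the Aurka cells (12808, 11306 and 11943 CPM) and above the Stra8 cells (1819, 2231 and 2403 CPM). Of these, 9 were compared and 3 were at least 2-fold higher than in the other cells. Ldhc, the germ cell lactate dehydrogenase, was at 3980, 4135 and 3483 CPM, and Hspa2, a testis chaperone of the synaptonemal complex, at 1115, 1177 and 970 CPM. The Tex101 cells thus lay between the Stra8 and the Aurka cells in the summed pachytene to diplotene markers. In the summed entry list they were below both, the Aurka cells being at 2175, 2003 and 2048 CPM.

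**Figure D2:**
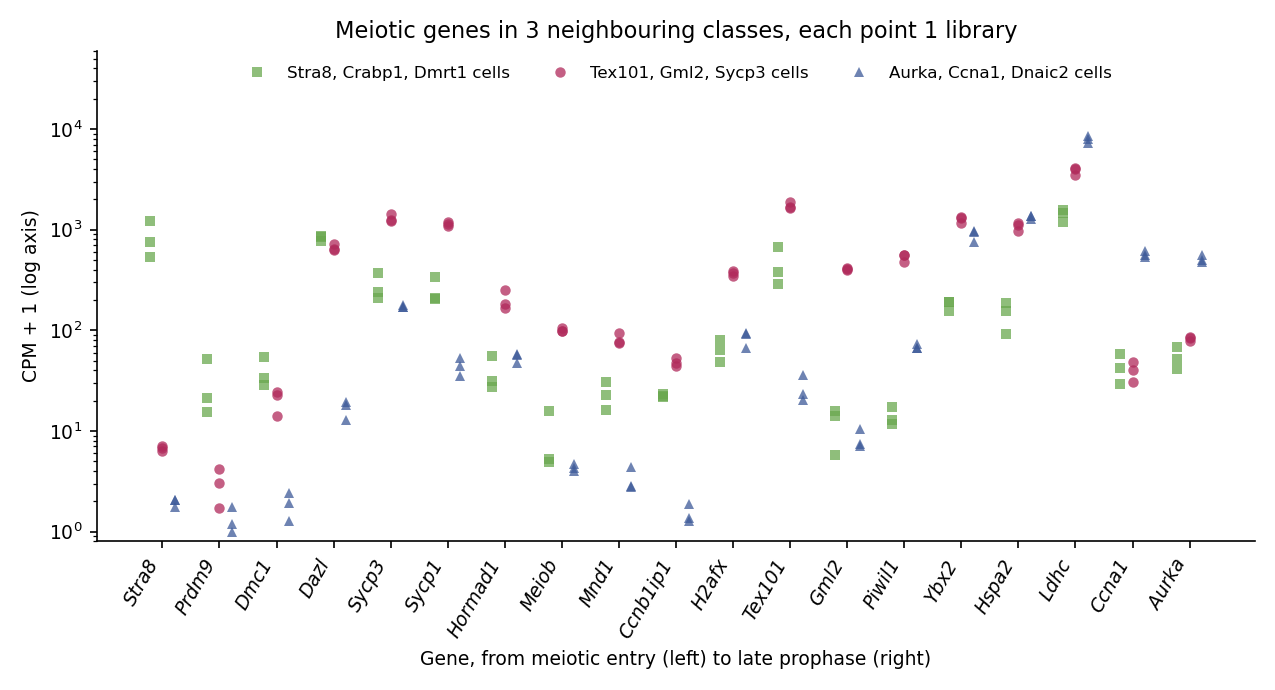
Level (CPM + 1, log axis) of 19 meiotic genes in the Stra8 cells (squares), the Tex101 cells (circles) and the Aurka cells (triangles), each point 1 library. Stra8 and Prdm9 are high only in the squares, Sycp1, Meiob, Gml2 and Piwil1 are highest in the circles, and Ccna1 and Aurka are highest in the triangles.

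Markers of other cells were low but not all absent. Those of Leydig cells summed to at most 0.64 CPM in any library, of endothelial cells to at most 2.65 CPM and of myoid and mesenchymal cells to at most 3.54 CPM. Those of macrophages summed to 13.4, 5.15 and 6.01 CPM, with 4, 3 and 3 of the 6 at 0, C1qa among those at 0 in the control and with hairpin 1. Markers of plasma and B cells summed to 5.27, 20.6 and 76.6 CPM, led by Jchain. Markers of Sertoli cells, the somatic cells that surround germ cells, summed to 128, 41.2 and 123 CPM, against 170, 58.6 and 96.9 CPM in the other cells. Of the 10, only 2, 3 and 0 were at 0, Sox9 and Amh among those at 0 in the control and with hairpin 1. The trio Defb19, Cst9 and Cst12, all among these markers, had the second-highest score in many Tex101 cells. These were 29 of 79, 9 of 73 and 63 of 213 cells (36.7%, 12.3% and 29.6%). Transcripts of late spermatids, such as protamines, gave 6.0% of UMIs in the control, 3.26% for hairpin 1 and 3.92% for hairpin 2, and 9, 3 and 11 cells had more than 10% of their UMIs from them. Without those cells the shares were 3.66%, 2.79% and 2.93%, still highest in the control.

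Genes that stood out from all other cells are given as descriptions, since the same cells were chosen by their RNA. They are ordered here by role beside list members of the same role, many of the first 20 fall under no role, and no role was tested for enrichment. Some encode Ly6/uPAR proteins in clusters on chromosomes 7 and 15 (mm10). Next to Gml2 (chr15:74819071-74834871) lies Gml (chr15:74813452-74818815), which was at 584, 610 and 563 CPM in the Tex101 cells and 10.0, 9.65 and 14.3 CPM in all other cells. Ly6k (chr15:74796874-74799986), which forms a complex with TEX101 protein, was at 838, 813 and 825 CPM against 47.1, 52.1 and 55.3 CPM. Near Tex101 (chr7:24668007-24676675) lie BC049730 (chr7:24709242-24714535), Gm4763 (chr7:24715023-24726908) and Cd177 (chr7:24743983-24760311). Cd177 was at 117, 104 and 107 CPM against 3.06, 3.18 and 4.18 CPM. The cluster was not uniform: Lypd4 (chr7:24864620-24869941) was at 342, 382 and 384 CPM and at 978, 961 and 917 CPM in the Aurka cells. Of 33 family members listed, 30 were in the table and 8 passed the filter for comparison, of which 4 were at least 2-fold higher than in the other cells. Over all compared genes 32.1% were. The list holds Tex101 and Gml2, which chose the cells, so nothing is read from this count. Exons of Gml2 overlap those of Cyp11b1 on the opposite strand, and how strand was handled was not stated in the sources used here. The same limit holds for exons of other genes named here, among them Ly6k, Sycp3, Swi5, H2afx, Atr, Tdrd5 and Atp6v1e2. It also holds for Stambp, Pdha1, Cstf2, Mgll, Fbxo22 and Fen1, and this list is not complete. Ccnb1ip1 overlaps Rpph1, and Atr overlaps Gm24004, on the same strand.

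Other genes act in recombination. Meiob, a single-strand DNA binding protein that stabilises recombination intermediates, was at 97.7, 106 and 96.4 CPM against 2.16, 1.82 and 2.72 CPM in the other cells. It was seen in 53.2%, 47.9% and 46.5% of thinned Tex101 cells and in 0 of the leukocyte-led cells, which allows up to 15%, 3.19% and 1.66% of cells with a UMI at this depth (3 counts), and sets no limit on cells that express it. Swi5, which acts in homologous recombination, was at 1211, 1297 and 1313 CPM against 153, 197 and 237 CPM. Dmc1 itself, the meiotic recombinase, was at 23.1, 21.9 and 12.9 CPM, and in the Stra8 cells at 53.4, 27.6 and 32.5 CPM. Spo11, the enzyme that cuts the breaks, was at 53.1, 48.9 and 48.8 CPM against 5.93, 6.77 and 2.56 CPM in the Stra8 cells. Ccnb1ip1 (Hei10), a crossover factor, was at 43.0, 51.5 and 46.2 CPM against 0.82, 1.31 and 2.08 CPM in the other cells.

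Others build the axis and the synaptonemal complex. Sycp1, the transverse filament that zips homologues together, was at 1084, 1194 and 1135 CPM against 57.0, 67.3 and 63.8 CPM in the other cells. Syce3, of its central region, was at 623, 725 and 747 CPM against 258, 267 and 294 CPM. Hormad1, an axis protein that monitors synapsis, was at 250, 181 and 167 CPM, highest in the control. Rec8, a meiotic cohesin, was at 6.89, 12.9 and 10.1 CPM and lower than in the other cells. H2afx, the histone phosphorylated over the sex body, was at 348, 373 and 388 CPM against 16.1, 31.8 and 45.6 CPM, and Atr, the kinase that acts there, at 102, 113 and 119 CPM against 7.96, 11.1 and 14.3 CPM.

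Some belong to the piRNA pathway, which silences transposons and other transcripts through small RNAs. Piwil1, its pachytene Argonaute protein, was at 476, 558 and 559 CPM against 14.3, 19.9 and 21.9 CPM in the other cells, and at 11.9, 10.7 and 16.2 CPM in the Stra8 cells. Tdrd5, a Tudor protein of the piRNA granules, was at 86.0, 90.1 and 81.0 CPM against 2.56, 2.66 and 3.80 CPM. Stk31, a Tudor domain protein, was at 251, 263 and 287 CPM against 7.49, 9.44 and 13.6 CPM. Other genes in the first 20 were Stambp, a deubiquitinase, at 195, 228 and 185 CPM, Cks2, a cyclin-dependent kinase partner, at 1221, 1127 and 1157 CPM, and Cers3, a ceramide synthase, at 163, 140 and 131 CPM. Cks2 has near-identical pseudogene copies, so its reads may have been shared.

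The Tex101 cells were not uniform. They were ordered by an index, the log of a cell's summed level of a pachytene list minus that of a list of meiotic entry. No X-linked gene was used, and the most abundant members weighed most in each sum. The ordered cells were divided into early, middle and late groups of 121, 122 and 122 cells. This ordering was chosen after seeing the data, and genes of the 2 lists are descriptions of it. Depth moved with the order, with medians of 13998, 21955 and 34517.5 UMIs per cell, and its part in the gene levels was not tested beyond the scaling to CPM. The control had 40.5%, 34.2% and 25.3% of its cells in the early, middle and late groups. Hairpin 1 had 35.6%, 30.1% and 34.2%, and hairpin 2 had 29.6%, 34.3% and 36.2%. The intervals overlapped in every group.

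Of 20 compared genes of strand exchange and repair, 13 were higher in the early than in the late group in all 3 libraries and 3 lower, and of 14 axis and cohesin genes 9 were higher and 1 lower. Over all compared genes 35.6% were higher early and 29.6% higher late. Dmc1 was at 77.8, 69.7 and 30.5 CPM there in the control, hairpin 1 and hairpin 2, and at 3.48, 1.25 and 1.66 CPM in the late group. Meiob was at 213, 203 and 230 CPM in the early group and 34.8, 41.1 and 29.9 CPM in the late one. Sycp3 was at 3056, 1959 and 2547 CPM early and 732, 686 and 679 CPM late, so the gene that helped choose the cells differed several-fold within them. Spo11 ran the other way, at 33.9, 30.3 and 36.6 CPM early and 65.2, 54.8 and 51.1 CPM late. Tex101 was at 2579, 2192 and 2248 CPM early and 1276, 1558 and 1264 CPM late.

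Among genes higher in the late group, Prok2, which encodes a secreted prokineticin, was at 5.98, 21.2 and 38.7 CPM early and 301, 424 and 380 CPM late. Mgll, a lipase of monoacylglycerols, was at 3.99, 0 and 4.07 CPM early and 40.8, 89.7 and 46.4 CPM late. The glucose transporter Slc2a3 was at 51.9, 66.7 and 84.5 CPM early and 319, 320 and 305 CPM late. Ldha, the somatic lactate dehydrogenase, was at 180, 270 and 248 CPM early and 953, 1008 and 920 CPM late. Mt2, a metallothionein, was at 136, 240 and 251 CPM early and 723, 1092 and 1019 CPM late.

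**Figure D3:**
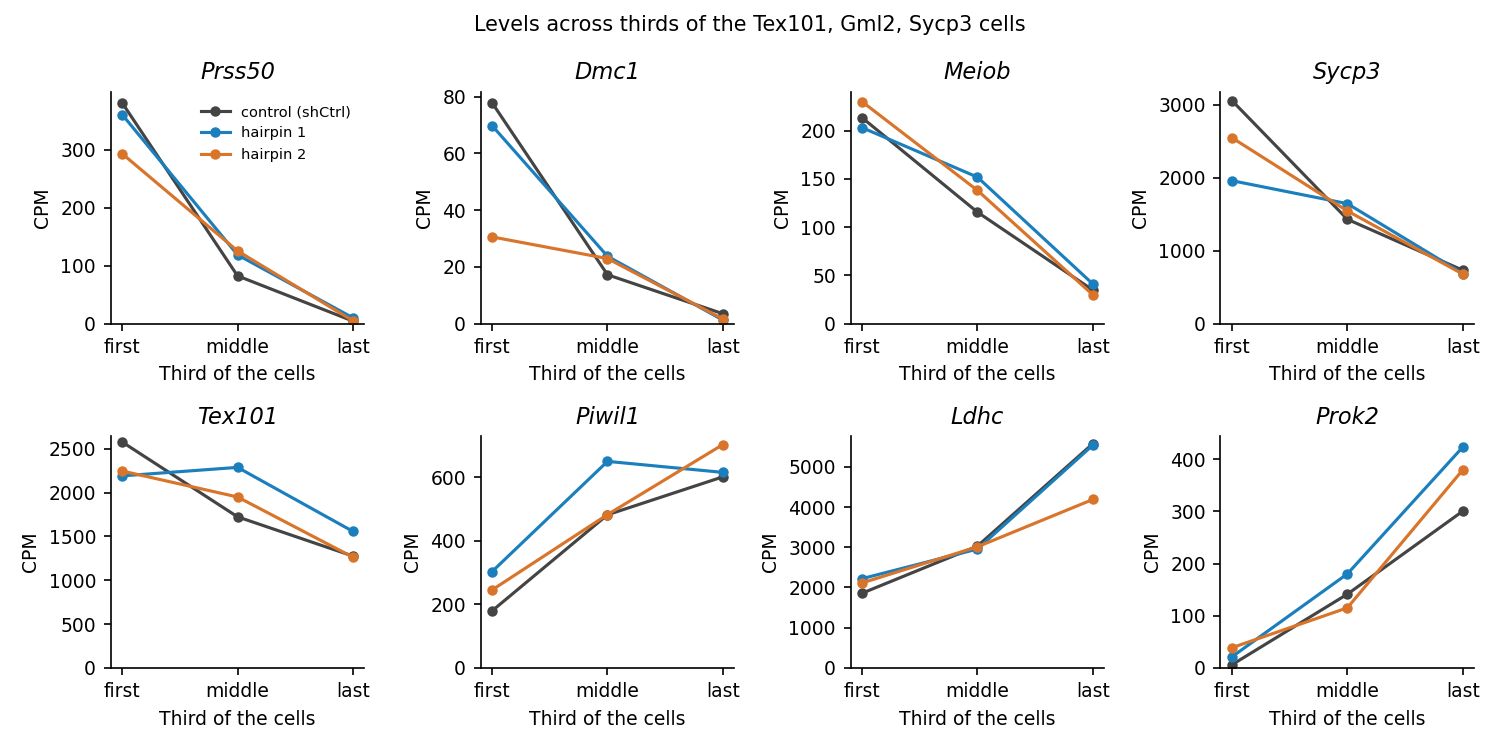
Level (CPM, vertical axes from 0) of 8 genes in the early, middle and late groups of the Tex101 cells (first, middle and last on the horizontal axis), each line 1 library. Prss50, Dmc1, Meiob, Sycp3 and Tex101 are lower in the last group than in the first in each library, and Piwil1, Ldhc and Prok2 are higher. Prss50 and the pachytene genes Piwil1 and Ldhc were used to order the cells.

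X-linked genes were among those that differed along the order. Of 5250 genes with a mean of at least 30 CPM at either end, 46 (0.876%) were X-linked. At least 4-fold higher in the early than in the late group in all 3 libraries were 65 (1.24%), and 11 of these were X-linked. A gene could enter through the end where it was high alone, so these counts are a description and no enrichment is read from them. In the other direction 15 genes (0.286%) were at least 4-fold higher in the late group, of which 0 were X-linked. So few genes cannot be set against the 0.876% of all genes tested. Among the 11 were Taf7l, a germ cell subunit of the general transcription machinery, at 79.8, 78.8 and 43.8 CPM early and 4.34, 3.74 and 3.98 CPM late, and the homeobox gene Rhox13, at 29.9, 30.3 and 32.6 CPM early and 0, 1.25 and 2.65 CPM late.

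X-linked genes gave 0.636% of the UMIs of the Tex101 cells in the control, 0.397% for hairpin 1 and 0.495% for hairpin 2. In the Stra8 cells they gave 1.88%, 1.57% and 1.71%, and in the Aurka cells 0.442%, 0.422% and 0.480%. The early group held 0.687%, 0.679% and 0.667%, so most of the drop from the Stra8 cells lay before it. The late group held 0.598%, 0.313% and 0.430%, and there the control was highest. These are shares of pooled UMIs, in which deep cells weigh most. The median cell held 0.568%, 0.481% and 0.583% in the early group, and 0.303%, 0.215% and 0.273% in the late group. Not every X-linked gene was lower than in the Stra8 cells. Akap4, of the sperm tail sheath, was at 499, 252 and 269 CPM, and at 243, 198 and 201 CPM in the Stra8 cells. In the other cells it was at 1198, 793 and 717 CPM. X-linked members of the late spermatid list gave 0.0664%, 0.0381% and 0.0393% of UMIs in the late group. Late spermatid RNA in the late group was 5.77%, 3.69% and 4.38% of UMIs, in the same order as the X share, and its part in the difference between libraries was not tested.

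Several X-linked genes have an autosomal copy that is expressed in the testis, made by copying of a transcript into the genome. For 11 such pairs, chosen after seeing the data, the levels of both copies were read along the same order. Rpl39, a ribosomal protein gene on the X chromosome, was at 657, 462 and 545 CPM in the Stra8 cells, 134, 288 and 172 CPM in the early group and 1.74, 3.74 and 9.29 CPM in the late group. Its copy Rpl39l, on chromosome 16, was at 516, 607 and 682 CPM in the Stra8 cells, 1348, 1425 and 1470 CPM early and 1310, 1447 and 1462 CPM late. Over the 11 pairs, the X-linked member was lower in the late group than in the Stra8 cells in all 3 libraries in 11, and the autosomal one higher in 8. In 4 of the 11 the X-linked member was also lower in the late than in the early group in all 3 libraries. At a mean of at least 10 CPM in the Stra8 cells stood 7 of the X-linked members, and the rest were too low to follow.

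Rpl10 followed the same course, at 51.9, 69.7 and 83.5 CPM early and 6.95, 7.47 and 11.3 CPM late, while Rpl10l was at 104, 158 and 110 CPM early and 109, 148 and 117 CPM late. Pdha1, a subunit of pyruvate dehydrogenase, was at 17.8, 10.2 and 18.4 CPM in the Stra8 cells and at most 0.71 CPM over the Tex101 cells. Pdha2, its autosomal copy, was at 31.2, 35.0 and 35.9 CPM in the Stra8 cells and 243, 237 and 203 CPM in the Tex101 cells. Rbmx, an RNA binding protein gene, was at most 0.64 CPM in the Tex101 cells, where Rbmxl2 was at 375, 429 and 355 CPM. The autosomal copy was not higher in all 3 libraries for Rpl36al, G6pd2 and Utp14b. Utp14a, on the X chromosome, was at 15.8, 3.86 and 25.8 CPM in the Tex101 cells, and Utp14b, whose exons overlap Acsl3 on the same strand, at 5.27, 4.5 and 4.77 CPM. Cstf2, a factor of mRNA 3' end formation, was at 18.0, 39.4 and 24.4 CPM early and 20.9, 3.74 and 12.3 CPM late. Rpl10 and Rpl36a have near-identical pseudogenes, which makes their levels uncertain.

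**Figure D4:**
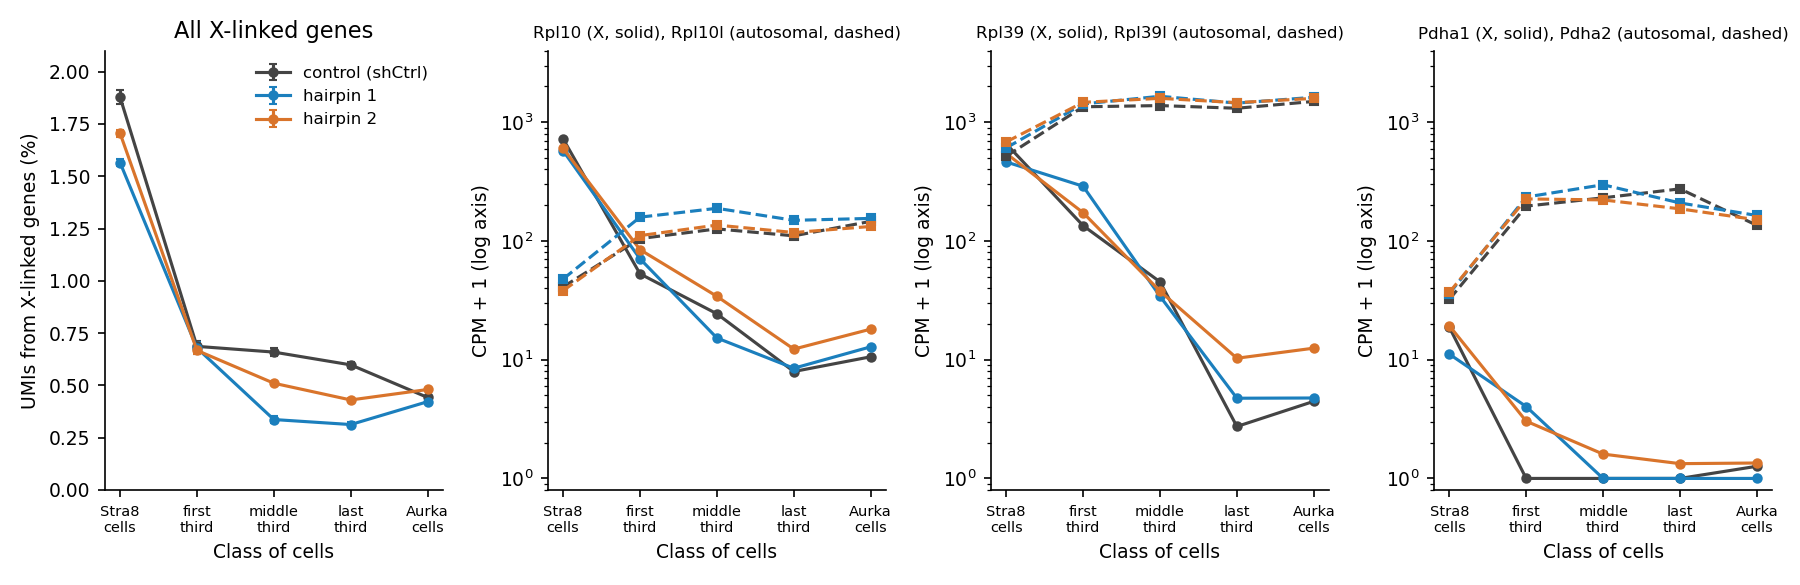
Left, share of UMIs from X-linked genes (%, with binomial 95% intervals for counting error) in the Stra8 cells, the early, middle and late groups of the Tex101 cells (first, middle and last) and the Aurka cells, by library. The other panels give CPM + 1 (log axes) of 3 X-linked genes (solid) and their autosomal copies (dashed): Rpl39, Rpl10 and Pdha1 are lower in the late group than in the Stra8 cells in each library, and their copies are higher.

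A split by the second-highest trio is described here on few cells. Those with the Stra8 trio second numbered 5, 9 and 14 in the control, hairpin 1 and hairpin 2, and those with the Aurka trio second 12, 14 and 54. Apart from Stra8, a gene of that trio, the 7 genes most in favour of the first were all X-linked: Rpl36a, Map7d2, Rbmx2, Taf7l, Suv39h1, Magea8 and Rbbp7. A gene could enter through the side where it was high alone, and the X-linked share of all genes in this split was not counted. The ranking is thus a description, and no enrichment is read from it. Suv39h1, a histone H3 lysine methyltransferase, rested on 5, 3 and 5 UMIs there and on 0 in the others. On the Aurka side stood, besides Aurka, genes such as Topaz1, needed for meiotic divisions of male germ cells, at 66.1, 51.5 and 51.2 CPM against 29.3, 16.7 and 23.7 CPM.

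Gm4665, the target of the hairpins (chr9:115180404-115186058, annotated as antisense), was at 116 CPM in the control Tex101 cells, 14.8 CPM for hairpin 1 and 35.5 CPM for hairpin 2, from 285, 23 and 201 UMIs. The log2 fold from control, with 1 CPM added to each level, was -2.88 and -1.67. Its level in the control was not particular to these cells, at 66.8 CPM in the Stra8 cells and 64.7 CPM in the Aurka cells. In all cells of the control outside the Tex101 class Gm4665 was at 324 CPM, above its level in the Tex101 cells. In thinned cells it was seen in 35.4%, 8.22% and 21.1% of the Tex101 cells, and in 30%, 5.32% and 9.39% of the leukocyte-led cells. In the control the share was thus near that of cells that should lack the gene. Without the cells rich in spermatid RNA the levels were 62.6, 14.1 and 25.2 CPM.

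Most genes differed little between the libraries. Of 7567 genes compared in the Tex101 cells, 19 (0.251%) were at least 2-fold higher than the control with both hairpins and 47 (0.621%) at least 2-fold lower, all with ratio intervals that left out equality. Both comparisons share the 1 control library, so a count in both is not a repeat. The median log2 fold of all compared genes was 0.06 with hairpin 1 and 0.04 with hairpin 2, and 43.7% of them were above and 31.8% below the control with both. The counts of list members above and below that follow are to be read beside these shares.

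No compared gene of the meiotic lists passed the 2-fold threshold with both hairpins. Of 14 compared axis and cohesin genes, 4 were above and 10 below the control with both, with median log2 folds of -0.16 and -0.13. Of 7 in the central region of the synaptonemal complex, 4 were above and 3 below. Among these was Tex12, a central element protein, at 79.5, 43.8 and 37.7 CPM, with log2 folds of -0.85 and -1.06. Hormad1 had log2 folds of -0.46 and -0.58. Of 20 compared genes of strand exchange and repair, 11 were above and 4 below, with medians of 0.15 and 0.06. Of 9 crossover genes, 3 were above and 3 below.

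Lists of later steps were as near to the control, apart from that of late spermatid transcripts. Of 10 sex body genes 7 were above and 2 below, with medians of 0.12 and 0.12. Of 25 pachytene genes 13 were above and 6 below, with medians of 0.15 and 0.07. Among them was Tdrd6, a Tudor protein of the chromatoid body, at 22.7, 41.2 and 39.3 CPM (log2 folds 0.83 and 0.76). Of 18 genes of the meiotic divisions 10 were above and 1 below, with medians of 0.11 and 0.14. Of 5 compared genes of apoptosis and p53 targets 2 were above and 1 below, and Bax, a mediator of cell death, was at 38.5, 48.9 and 44.6 CPM. With both hairpins all 14 late spermatid transcripts were below the control, their median log2 folds being -0.82 and -0.57, or -0.53 and -0.32 without the cells rich in them.

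Of the genes higher with both hairpins, Jchain, the joining chain of secreted antibodies, was at 2.43, 14.2 and 55.5 CPM. It is made by plasma cells, and in all other cells of these libraries it was at 5.98, 542 and 1051 CPM, in the same order; its part in the difference was not tested. The long non-coding RNA gene 1700023F02Rik (chr10:66120605-66254223) was at 5.27, 32.8 and 25.3 CPM, with log2 folds of 2.43 and 2.07, and at 16.5, 89.1 and 78.8 CPM in the Aurka cells. Atp6v1e2 (chr17:86944109-86947897), which encodes an E subunit of the vacuolar ATPase, was at 6.08, 25.7 and 43.9 CPM, with log2 folds of 1.92 and 2.66. In the other cells it was at 19.0, 113 and 125 CPM, so the difference was not limited to the Tex101 cells. Mfap5, a protein of extracellular microfibrils, was at 7.30, 20.6 and 24.2 CPM. The mitochondrial gene mt-Nd3, a subunit of respiratory complex I, was at 86.4, 241 and 223 CPM, while all mitochondrial genes gave 2.38%, 2.93% and 2.90% of UMIs. Fbxo22, a substrate receptor of a ubiquitin ligase, was at 4.06, 12.2 and 14.5 CPM, and the other genes picked were Prorsd1, Slco6d1, Ric8, 1700022I11Rik, Toporsos and Cmas.

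Of the genes lower with both, the long non-coding RNA gene 4933433G15Rik (chr9:75410184-75417709) was at 43.8, 3.22 and 2.48 CPM, with log2 folds of -3.41 and -3.69. It was at 68.7, 4.70 and 4.01 CPM in the Aurka cells, a like difference. The gene 2010109A12Rik was at 48.3, 16.7 and 1.59 CPM, the hairpins differing from each other. Asns, asparagine synthetase, was at 44.6, 16.7 and 12.9 CPM. Dynlt1a at 28.4, 3.22 and 5.31 CPM, Sft2d1 at 71.0, 19.3 and 19.8 CPM and Rpl29 at 71.4, 27.7 and 26.9 CPM have near-identical copies elsewhere and are uncertain.

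Most of the lower genes were at a higher level in the other control cells, which does not show that the Tex101 cells lack them. Of the 47, 43 (91.5%) had a higher level in the other control cells than in the control Tex101 cells, where 34.8% of all compared genes did. Without the cells rich in spermatid RNA 41 genes were lower, 27 of them among the 47. Spermatid RNA was higher in the control Tex101 cells, as given above, and its part in these calls was not tested. The 19 higher genes were less one-sided, with 9 of 19 (47.4%) higher in the other control cells.

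**Figure D5:**
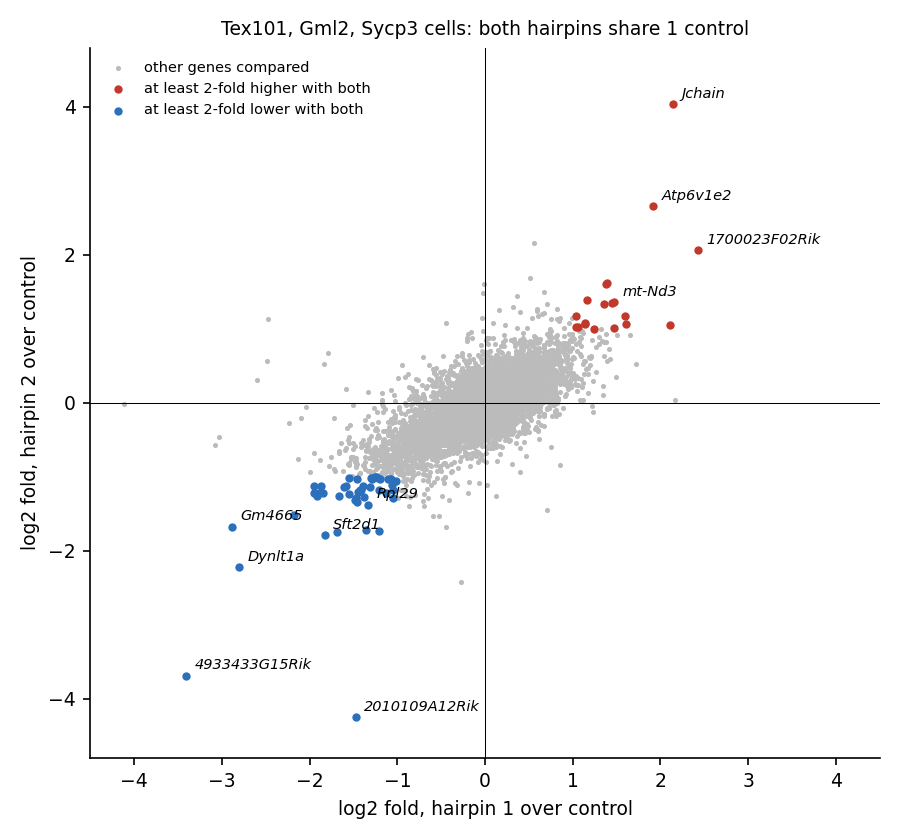
Log2 fold from control in the Tex101 cells with hairpin 1 (horizontal axis) and hairpin 2 (vertical axis), each point 1 of 7567 compared genes, with genes at least 2-fold higher (red) or lower (blue) with both. Since both axes use the same control library, points along the diagonal are not independent; 19 genes are red and 47 are blue.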

How the data were processed

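Droplet 3' RNA sequencing of sorted germ cells was deposited by the authors as natural log (ln) values per gene and cell. Per the submitters' processing notes the tools were Cell Ranger 1.3.1 and Seurat 2.0.0 with mm10; the cell filter, gene annotation and strand were not given in the sources used here. Undoing the log gave sums of 10000 per cell, and 100% of 20140203 non-zero values were whole UMIs within 0.01. No cell was removed, and the shallowest had 7018 UMIs. The names of the knockdown columns were matched to shRNA1 and shRNA2 by their last digit alone. If that is wrong, hairpin 1 and hairpin 2 change places.

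UMIs were summed per library and divided by the sum of the class. Folds used a pseudocount of 1 CPM. A gene was compared with a mean of at least 10 CPM and 30 UMIs, and counted if at least 2-fold from control with both hairpins. The design had allowed for ln values or UMIs, and UMIs were used. The first 12 genes per direction, ranked by the smaller fold among those whose ratio intervals left out equality, the first 20 that stood out, Gm4665, the trio and up to 6 members of each of 16 lists were picked for naming, and some are not printed. Genes that define a role, and those of the ordering and the copies, are given beside them, some chosen after their values were seen. Intervals were exact Poisson or Clopper-Pearson (95%). The members and lists were chosen with earlier results of these data known.

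The doublet caller of scanpy 1.11.5 marked 8, 7 and 2 cells (0.56%, 0.40% and 0.107% of the libraries), too few to count as working, and 0, 1 and 0 Tex101 cells; marked cells were kept. No source used here says whether the authors removed doublets. Positions came from GENCODE vM21, which held 95.7% of the gene symbols, and near-identical transcripts (97% over 200 bases) from blastn 2.17.0. Python 3.11.15, numpy 2.4.6 and scipy 1.17.1 were used, and the steps were tested on simulated data. Of the alternatives, 3 were added after seeing the data.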

Additional observations from a re-analysis of the deposited data

How the results depend on the processing

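No paired analysis was possible because each group was 1 library. The shares of Tex101 cells stayed within their counting intervals when scores were standardised within libraries, a margin was required, any 1 gene of the trio was left out or cells were thinned, and were 30.4%, 12.9% and 29.7% of the cells led by the trios of the Stra8, Tex101, Aurka and Ssxb1 classes. The counts of 19 higher and 47 lower genes became 7 and 23 with a pseudocount of 5 CPM, 2 and 13 with a mean of at least 30 CPM, 83 and 103 with no filter on the mean, 47 and 88 with a margin of at least 0.5, and 52 and 28 with cells counted equally. With cells thinned to 7000 UMIs they were 132 and 48, and 9 of the 19 and 16 of the 47 were among them. The share of calls that were higher was 28.8% as reported, 20.3% with trimmed-mean (TMM) or median-of-ratios factors, 13.3% at 30 CPM, 44.6% with no filter, 65.0% with cells equal and 73.3% thinned, so the balance of directions moved with the filter on the mean and with the weighting and depth of cells; the cause was not tested. In thinned cells Tstd3 had a log2 fold of 0.11 and Abca14 of -0.74 with hairpin 1, the reverse of their reported directions. The other counts were within 1.5 times those reported, but like counts did not always mean the same genes. With cells weighted to the second-highest trios of the control there were 19 and 35. Of these, 12 and 26 were among the genes reported. In all 14 alternatives 4 of the 19 and 7 of the 47 kept a fold of at least 2 with both hairpins, among them Jchain, 1700023F02Rik, Atp6v1e2 and Mfap5, and 4933433G15Rik, 2010109A12Rik and Gm4665. Depth limits genes near 10 CPM most with hairpin 1, which had the fewest UMIs, and 1 library per group gives no spread between animals.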

Other observations

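DNA replication genes were still present in the Tex101 cells and uneven among themselves. Of 22 listed, 15 were compared, 3 above and 7 below the control with both hairpins, with median log2 folds of 0.06 and -0.18. Dut, which removes dUTP, was at 304, 342 and 272 CPM and at 13.8, 25.2 and 42.9 CPM in the other cells. Pcna, the sliding clamp of replication and repair, was at 107, 89.4 and 82.8 CPM, and in the Stra8 cells at 62.3, 60.4 and 72.6 CPM. Mcm2, of the replicative helicase, was at 1.22, 1.93 and 1.06 CPM, and in the Stra8 cells at 108, 117 and 93.1 CPM. Fen1, a flap nuclease, was at 45.4, 27.0 and 24.2 CPM, with log2 folds of -0.73 and -0.88.

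Of the chaperones, Hsp90aa1 was at 4466, 4652 and 4186 CPM in the Tex101 cells and 842, 1331 and 1280 CPM in the other cells, though near-identical pseudogenes make its level uncertain. Hspa5, of the endoplasmic reticulum, was at 330, 239 and 230 CPM, with log2 folds of -0.46 and -0.52. The immediate-early gene Fos was at 0.81, 0 and 3.18 CPM, and in the Stra8 cells at 31.2, 42.9 and 52.1 CPM.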
